A study of Homo sapiens with 12 samples.

Results

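YAP and TAZ are transcriptional coactivators restrained by the Hippo pathway, a kinase cascade in which MST1/2 activate LATS1/2, and LATS1/2 phosphorylate YAP and TAZ so that they stay out of the nucleus. In the nucleus they act mainly through the TEAD DNA-binding factors, and their target genes include secreted matricellular proteins as well as several proteins that feed back on the cascade. This account covers 9 genes of that pathway in HEK293T cells and in R1 cells, out of 23500 genes listed in the deposited table. They are 3 parts of the nuclear complex (YAP1, WWTR1, which encodes TAZ, and TEAD1), 3 target genes with products outside the cascade (ANKRD1, CCN1 and CCN2), and 3 target genes whose products act on it (AMOTL2, AJUBA and LATS2). The genes were taken by name, and the set was chosen by the counts of ANKRD1, which had been seen to be higher in R1 cells in −Met+Hcy medium. For that reason the values of all 9 in the comparison of media within R1, and those of ANKRD1 in any comparison that uses R1 libraries, are a description without a test. All 9 passed the filter on low counts.

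HEK293T is a line of transformed human embryonic kidney cells that does not proliferate when homocysteine replaces methionine. R1 is a single clone derived from it that does. Both lines were grown for 12 h in +Met or in −Met+Hcy medium, both media being made from DMEM with dialyzed serum, glutamine, cysteine and vitamin B12, and each of the 4 groups has 3 RNA libraries. Nothing in the labels says that replicates came from separate cultures, so that p-values measure the spread between these libraries, which may be technical. Because R1 is a single clone, its differences from HEK293T cells cannot be told apart from those of any clone. The total estimated count per library lay between 14260534 and 17019716 in HEK293T −Met+Hcy, between 14599045 and 16337507 in HEK293T +Met, between 12664158 and 18408528 in R1 +Met and between 13718050 and 18771349 in R1 −Met+Hcy.

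Vimentin, the most abundant of 8 markers of the HEK293 line, was read at 305 to 834 CPM (counts per 1000000 of the library total) in every library, and the 8 markers summed to 475 to 989 CPM. Vimentin made up most of each sum, so that the sum says little of the other markers. PAX2 and LHX1 had means of 0.46 and 0.55 CPM in HEK293T +Met and of 5.64 and 3.67 in R1 +Met. Between the lines in +Met, 4 of the 8 had a log2 fold change above 0 and 4 below. The summed level of 10 markers of MDA-MB-468 cells, another line of the study, lay between 0 and 0.921 CPM. The 5 fibroblast markers were lowest in HEK293T +Met, at a sum of 24.5 to 31.0 CPM, against 42.8 to 63.3 in HEK293T −Met+Hcy, 50.6 to 73.4 in R1 +Met and 31.9 to 90.3 in R1 −Met+Hcy. COL3A1 was the most abundant gene of this list in 7 libraries, among them all of HEK293T, and COL1A1 in the other 5, all of R1. COL1A2 was at 0 in 9 of the 12. Several YAP/TAZ target genes were lowest in the same group. The part of these markers in the levels of the 9 genes was not tested, and in such bulk libraries fewer cells of a kind and less RNA per cell cannot be told apart.

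R1 −Met+Hcy replicate 3 stood apart. Its chi-square per gene against the other libraries of its group was 205 and 236, where no other pair of replicates exceeded 90.1. R1 +Met replicate 2 came next, at 72.1 and 90.1 against its group, whose replicates 1 and 3 stood at 7.13. Without that library, 863 genes were called higher and 842 lower in R1 than in HEK293T cells in +Met, against 808 and 507 with it. Over 11043 genes, the deviation of R1 −Met+Hcy replicate 3 from the mean of the other libraries of its group ran against the GC content of the transcript, with a Spearman's rank correlation of -0.74. In the same measure replicates 1 and 2, whose comparison includes replicate 3, had 0.60 and 0.73, and the libraries of the other groups lay between -0.34 and 0.54. This is a description over genes, which are not independent replicates. Values without R1 −Met+Hcy replicate 3 are given for part of the genes where R1 −Met+Hcy is compared.

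TEAD factors bind a motif with the core GGAATG. The letters GGAATG, or CATTCC on the other strand, were searched in the 250 bases before the start of each gene in RefSeq (GRCh38.p14). Of 35116 such windows, 11.9% held the motif at least 1 time, 0.94% at least 2 times and 0.0826% at least 3 times. The windows of 4 genes are shown because these are the genes called higher in HEK293T cells in −Met+Hcy medium. The motif is in capitals. The windows are chr10:90921088-90921337 for ANKRD1, chr6:131951373-131951622 for CCN2, chr14:22982552-22982801 for AJUBA and chr13:21061587-21061836 for LATS2, all on the minus strand.
ANKRD1: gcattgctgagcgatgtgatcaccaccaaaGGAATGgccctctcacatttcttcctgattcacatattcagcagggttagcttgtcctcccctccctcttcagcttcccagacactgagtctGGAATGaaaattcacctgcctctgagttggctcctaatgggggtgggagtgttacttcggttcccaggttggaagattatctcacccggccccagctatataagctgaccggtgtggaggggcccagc
CCN2: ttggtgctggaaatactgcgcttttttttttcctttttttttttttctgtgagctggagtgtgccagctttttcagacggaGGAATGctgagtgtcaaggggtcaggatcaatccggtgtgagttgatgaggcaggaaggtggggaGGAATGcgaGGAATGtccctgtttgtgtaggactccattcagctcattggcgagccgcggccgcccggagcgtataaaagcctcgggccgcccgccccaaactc
AJUBA: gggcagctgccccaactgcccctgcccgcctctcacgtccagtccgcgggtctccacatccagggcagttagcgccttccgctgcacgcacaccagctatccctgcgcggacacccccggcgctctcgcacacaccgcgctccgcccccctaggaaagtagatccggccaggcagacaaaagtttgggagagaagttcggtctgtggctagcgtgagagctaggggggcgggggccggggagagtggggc
LATS2: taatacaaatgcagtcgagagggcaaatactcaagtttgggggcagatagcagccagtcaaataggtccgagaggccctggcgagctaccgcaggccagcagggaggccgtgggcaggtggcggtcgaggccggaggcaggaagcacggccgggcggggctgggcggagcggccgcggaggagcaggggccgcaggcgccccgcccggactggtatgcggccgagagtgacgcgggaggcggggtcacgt
CCN2 held 3 motifs, which begin 169, 104 and 95 bases before the gene's start, and ANKRD1 held 2, which begin 220 and 128 bases before it. The window of LATS2 and the AJUBA window shown held none of these letters. AJUBA has a second listed start, whose window holds 1 motif beginning 59 bases before it. AMOTL2 had 1 motif in one of its windows and none in the other, YAP1 had 1, and WWTR1 had none. CCN1 and TEAD1 were not matched in the sequence table. A match of letters describes the sequence and not binding.

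The plot of CPM by library shows the 9 genes in the 4 groups. Levels per library are given as CPM from the column totals. Fold changes come from one edgeR quasi-likelihood model of all 12 libraries with TMM scaling, and a gene was called at a Benjamini-Hochberg adjusted p under 0.05 over 17162 genes and an absolute log2 fold change over 1. TMM scales the HEK293T +Met libraries by 0.828 to 0.882 and the others by 0.930 to 1.12. Column totals therefore put the median gene at a log2 ratio of 0.31 between media in HEK293T cells, where TMM puts it at 0.03, and at 0.35 between R1 and HEK293T cells in +Met, where TMM puts it at 0.02. Ratios of CPM against HEK293T +Met carry this shift, and the log2 fold changes do not.

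**Figure D1:**
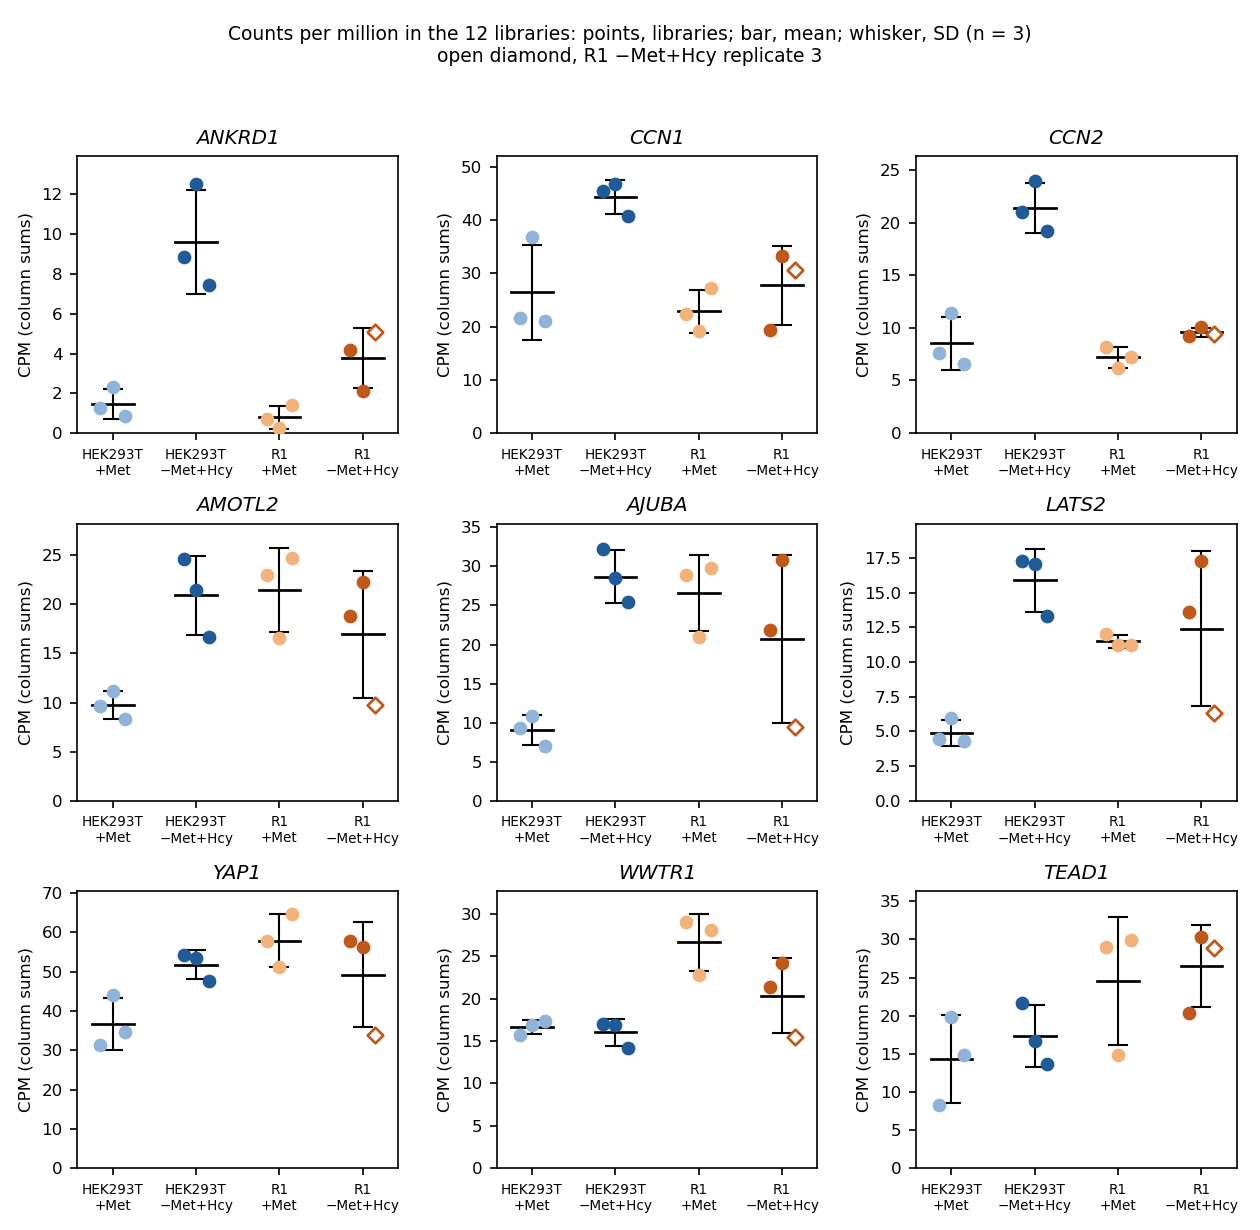
CPM from column totals (y axes, linear from 0) in each of the 12 libraries for the 9 genes, by cell line and medium (x axes). Points are libraries, bars are means and whiskers are SD over 3 libraries, and the open diamond is R1 −Met+Hcy replicate 3. ANKRD1, CCN1 and CCN2 reach their highest mean in HEK293T −Met+Hcy, whereas AMOTL2 and AJUBA in R1 +Met overlap with HEK293T −Met+Hcy.

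In HEK293T cells, 4 of the 9 genes rose in −Met+Hcy medium and none fell, namely ANKRD1, CCN2, LATS2 and AJUBA. Over all genes tested, 3.04% were called higher and 1.59% lower. The median log2 fold change of the 9 genes was 0.81, against 0.03 over all genes tested. Both target genes with products outside the cascade and target genes that feed back on it were among those called, whereas YAP1, WWTR1 and TEAD1 were not.

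ANKRD1 (ENSG00000148677, GRCh38 chromosome 10, 90912096 to 90921087, minus strand) encodes a nuclear ankyrin-repeat protein and is widely used as a readout of YAP activity. In HEK293T +Met its counts were 20, 34 and 14, equal to 1.25, 2.33 and 0.857 CPM, and 126, 213 and 113 counts in −Met+Hcy, equal to 8.84, 12.5 and 7.44 CPM. On column totals, the lowest −Met+Hcy library lay above 3 times the highest +Met library, so the groups did not overlap. With TMM scaling these 2 libraries were at 7.49 and 2.64 CPM. The log2 fold change was 2.41 ± 0.56 (SE, n = 3 per group, edgeR adjusted p = 0.0236). With the replicate number fitted as a block, ANKRD1 was not called. The +Met counts are small, so that the size of the change is less certain than its direction.

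CCN2 (ENSG00000118523, chromosome 6, 131948176 to 131951372, minus strand) encodes connective tissue growth factor, a secreted matricellular protein. Its counts were 121, 166 and 108 in +Met and 300, 407 and 291 in −Met+Hcy, equal to 8.52 ± 2.52 and 21.4 ± 2.40 CPM (SD, n = 3). The groups did not overlap, and the log2 fold change was 1.04 ± 0.23 (edgeR adjusted p = 0.0201), close to the threshold on the fold change. After removal of the GC and length trend it was 0.98, so that CCN2 was no longer called. Nor was CCN2 called with the replicate number fitted as a block. CCN1 (ENSG00000142871, chromosome 1, 85580761 to 85584589, plus strand) encodes the related secreted protein CYR61. Its counts of 345, 536 and 344 in +Met stood against 648, 797 and 619 in −Met+Hcy, or 26.5 ± 8.89 and 44.3 ± 3.20 CPM. The groups were apart on column totals but overlapped with TMM scaling, where the log2 fold change was 0.46 ± 0.27 (edgeR adjusted p = 0.333). CCN1 thus did not pass the test.

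LATS2 (ENSG00000150457, chromosome 13, 20973036 to 21061586, minus strand) encodes the kinase that phosphorylates YAP and TAZ and is itself a YAP target. Its counts were 71, 87 and 70 in +Met and 247, 290 and 202 in −Met+Hcy, or 4.90 ± 0.925 and 15.9 ± 2.25 CPM. On column totals, each −Met+Hcy library was above 2 times each +Met library. With TMM scaling the lowest −Met+Hcy library was at 13.4 CPM and the highest +Met library at 6.76. The log2 fold change was 1.40 ± 0.28 (edgeR adjusted p = 0.0134), the smallest adjusted p of the 9 genes in this comparison.

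AJUBA (ENSG00000129474, chromosome 14, 22971177 to 22982551, minus strand) encodes a LIM-domain protein that binds and inhibits LATS kinases. In +Met its counts were 149, 158 and 114, and in −Met+Hcy 459, 485 and 386, or 9.04 ± 1.94 and 28.7 ± 3.40 CPM, without overlap. Its log2 fold change was 1.37 ± 0.32 (edgeR adjusted p = 0.0239). AMOTL2 (ENSG00000114019, chromosome 3, 134355347 to 134375479, minus strand) encodes an angiomotin-like junction protein that binds YAP and holds it in the cytoplasm. The +Met libraries held 154, 163 and 136 counts and the −Met+Hcy libraries 351, 366 and 253, or 9.71 ± 1.42 and 20.9 ± 4.01 CPM, again without overlap. Its log2 fold change of 0.81 ± 0.26 did not pass (edgeR adjusted p = 0.0859).

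None of the genes of the nuclear complex itself passed the test. YAP1 (ENSG00000137693, chromosome 11, 102110447 to 102233424, plus strand) was read with 499, 644 and 567 counts with methionine and 775, 908 and 722 with homocysteine. Its media did not overlap on column totals but did with TMM scaling, where the log2 fold change was 0.21 ± 0.19 (edgeR adjusted p = 0.563). WWTR1 (ENSG00000018408, chromosome 3, 149517235 to 149736714, minus strand) had 251, 247 and 284 counts against 243, 287 and 216, a log2 fold change of -0.35 ± 0.18 (edgeR adjusted p = 0.281). Its media overlapped on column totals, whereas with TMM scaling every −Met+Hcy library was lower, as in 20.6% of all genes tested. TEAD1 (ENSG00000187079, chromosome 11, 12674421 to 12944737, plus strand) had 132, 289 and 242 counts against 309, 285 and 208, a log2 fold change of -0.01 ± 0.34 (edgeR adjusted p = 0.995). On column totals, 7 of the 9 genes had higher −Met+Hcy libraries without overlap, a pattern that 38.6% of all genes tested showed.

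The 4 calls did not hold when some single libraries were left out. None of the 9 genes was called once a single HEK293T library was left out among +Met replicates 1 and 3 and −Met+Hcy replicates 1 and 2, and LATS2 alone was called without −Met+Hcy replicate 3. Without +Met replicate 2, ANKRD1, CCN2 and LATS2 were still called and AJUBA was not. The call of AJUBA was thus lost when any HEK293T library was left out. With 1 HEK293T library fewer, 1.20 to 1.68% of all genes tested were called higher. In these fits the log2 fold changes stayed positive for all 4 genes.

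**Figure D2:**
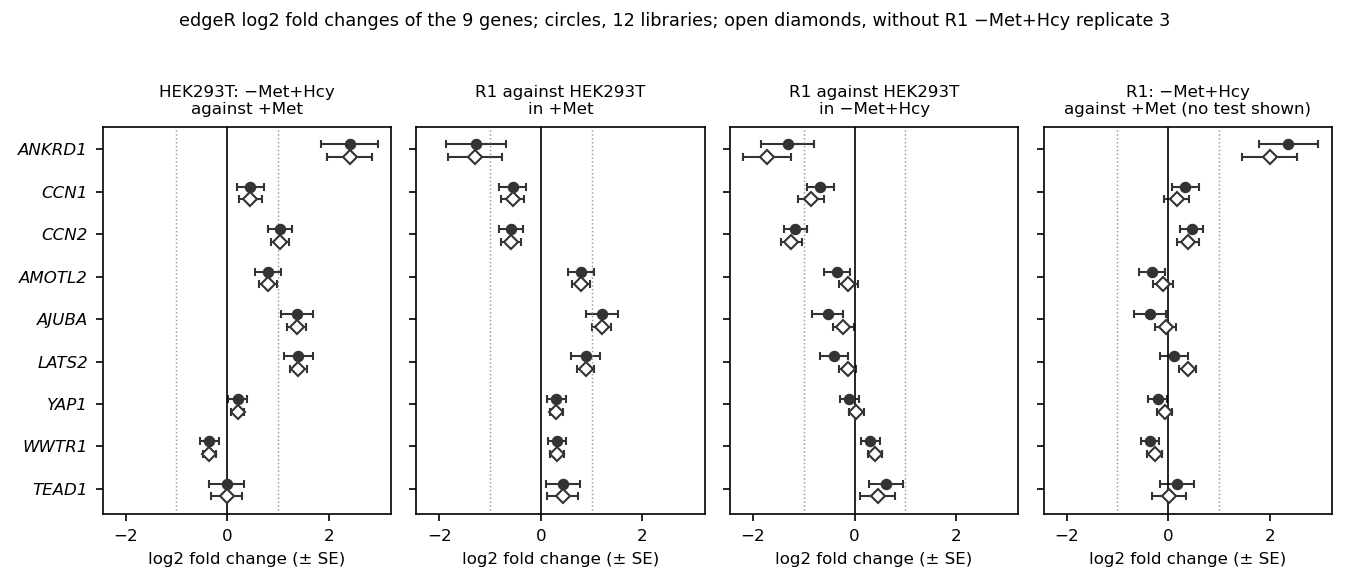
Log2 fold changes with SE (x axes) of the 9 genes (y axis) in 4 comparisons, from edgeR on the 12 libraries (circles) and without R1 −Met+Hcy replicate 3 (open diamonds). Dotted lines mark a log2 fold change of 1 in either direction. In +Met, AJUBA lies at 1.20 in R1 against HEK293T and CCN2 at -0.59, and in −Met+Hcy CCN2 lies at -1.17.

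The comparison of R1 with HEK293T cells in +Met medium asks how the clone differs when methionine is present, and it shares the HEK293T +Met libraries with the comparison of media. AJUBA was higher in R1, at 2.94 times the level on column totals, and it was the only one called of the 8 genes tested here, ANKRD1 being a description. Over all genes tested, 4.71% were called higher and 2.95% lower. AJUBA had 499, 386 and 377 counts in R1 +Met, equal to 28.9, 21.0 and 29.8 CPM, and the lowest of these lay above the highest HEK293T +Met library, at 10.8 CPM. Its log2 fold change was 1.20 ± 0.32 (edgeR adjusted p = 0.0318). Of the fibroblast markers described above, 4 were tested. COL1A1, named after its values were seen, was called higher in R1 as well (1.40 ± 0.36, edgeR adjusted p = 0.028), as it was in −Met+Hcy (1.15 ± 0.35, adjusted p = 0.0491). Between the lines in +Met, 3 of the 4 had a log2 fold change above 0 and 1 below, with a median of 0.66. For −Met+Hcy, 2 lay above 0 and 2 below, with a median of -0.22. None of the 4 was called between media in HEK293T cells.

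The other target genes that act on the cascade had values on the same side without passing the test. LATS2 had 207, 207 and 142 counts in R1 +Met, or 11.5 ± 0.448 CPM, and a log2 fold change of 0.88 ± 0.28 (edgeR adjusted p = 0.0683). AMOTL2 had 397, 305 and 313 counts, or 21.4 ± 4.30 CPM, and a log2 fold change of 0.79 ± 0.26 (edgeR adjusted p = 0.0763). Neither overlapped with HEK293T +Met on either scale, and on column totals 38.1% of all genes tested were higher in R1 without overlap. Without R1 −Met+Hcy replicate 3, which enters this comparison through the shared estimate of spread, the edgeR adjusted p was 0.0018 for LATS2 and 0.00528 for AMOTL2, with log2 fold changes still under 1.

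The target genes with products outside the cascade had values on the other side. ANKRD1 had 12, 5 and 18 counts in R1 +Met, or 0.796 ± 0.581 CPM, which overlapped with HEK293T +Met (log2 fold change -1.27, given as a description). CCN2 had 141, 113 and 92 counts, or 7.19 ± 1.02 CPM, with a log2 fold change of -0.59 ± 0.23 (edgeR adjusted p = 0.129). CCN1 had 384, 353 and 344 counts, or 22.9 ± 4.03 CPM, with a log2 fold change of -0.56 ± 0.27 (edgeR adjusted p = 0.211). CCN1 and CCN2 overlapped between the lines on column totals and lay lower in every R1 library with TMM scaling, as did 20.7% of all genes tested. Neither CCN1 nor CCN2 passed the test.

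YAP1, WWTR1 and TEAD1 had log2 fold changes of 0.31, 0.32 and 0.43 in R1 +Met, with edgeR adjusted p-values of 0.327, 0.295 and 0.456. WWTR1 had 500, 419 and 356 counts and was higher than HEK293T +Met without overlap on either scale, as were 38.1% of all genes tested on column totals and 22.2% with TMM scaling. YAP1, with 995, 942 and 819 counts, was without overlap on column totals alone, and TEAD1, with 499, 274 and 379 counts, overlapped. The call of AJUBA was lost when any HEK293T +Met library, HEK293T −Met+Hcy replicate 2, or R1 +Met replicate 1 or 3 was left out. Those fits called 415 to 657 of all genes tested higher, against 808 in the main fit, so that calls were lost over all genes too.

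Set beside HEK293T cells in −Met+Hcy, R1 cells in +Met had AJUBA and AMOTL2 at an overlapping level. AJUBA stood at 26.6 ± 4.86 CPM in R1 +Met and at 28.7 ± 3.40 in HEK293T −Met+Hcy, and AMOTL2 at 21.4 ± 4.30 and 20.9 ± 4.01. YAP1 and TEAD1 overlapped as well. LATS2, at 11.5 against 15.9 CPM, ANKRD1, CCN1 and CCN2 were lower in R1 +Met without overlap, by a ratio of means of 0.723, 0.083, 0.516 and 0.337. WWTR1 was higher in R1 +Met without overlap, by 1.66 times. Over all genes tested, 23.8% were lower and 25.1% higher in R1 +Met without overlap. This pair differs in both line and medium and was not tested.

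Within R1 cells, the counts of ANKRD1 were 12, 5 and 18 in +Met against 57, 32 and 95 in −Met+Hcy, equal to 0.696, 0.272 and 1.42 CPM and 4.16, 2.11 and 5.06 CPM. This gene led to the choice of the 9, so that its log2 fold change of 2.37 ± 0.58, or 2.00 without −Met+Hcy replicate 3, is a description. No library of one medium overlapped with the other, and the highest value was in replicate 3. In this comparison 0.00583% of all genes tested were called higher and 0 lower, which is 1 gene in all.

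CCN2 was the other gene whose R1 libraries did not overlap between media on column totals, with 127, 153 and 176 counts in −Met+Hcy and a mean of 9.57 ± 0.445 CPM against 7.19 ± 1.02 in +Met. Such a pattern held for 5.22% of all genes tested. Its log2 fold change was 0.46, and that of CCN1 was 0.34, with 265, 505 and 573 counts that overlapped with +Met. With TMM scaling WWTR1 was also without overlap, lower in −Met+Hcy, with 293, 367 and 291 counts and a log2 fold change of -0.36, a pattern of 5.72% of all genes tested.

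AJUBA, LATS2, AMOTL2 and YAP1 varied more between the R1 −Met+Hcy libraries than between media. AJUBA had 300 and 467 counts in replicates 1 and 2 and 176 in replicate 3, or 21.9, 30.8 and 9.38 CPM. LATS2 had 187, 262 and 119 counts, AMOTL2 258, 338 and 183, and YAP1 791, 852 and 638, each lowest in replicate 3 although its total was the largest of the group. Without replicate 3, the log2 fold changes between media were -0.05 for AJUBA, -0.10 for AMOTL2 and 0.38 for LATS2, against -0.36, -0.32 and 0.11 with it. TEAD1, with 280, 460 and 541 counts, was not low in replicate 3.

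**Figure D3:**
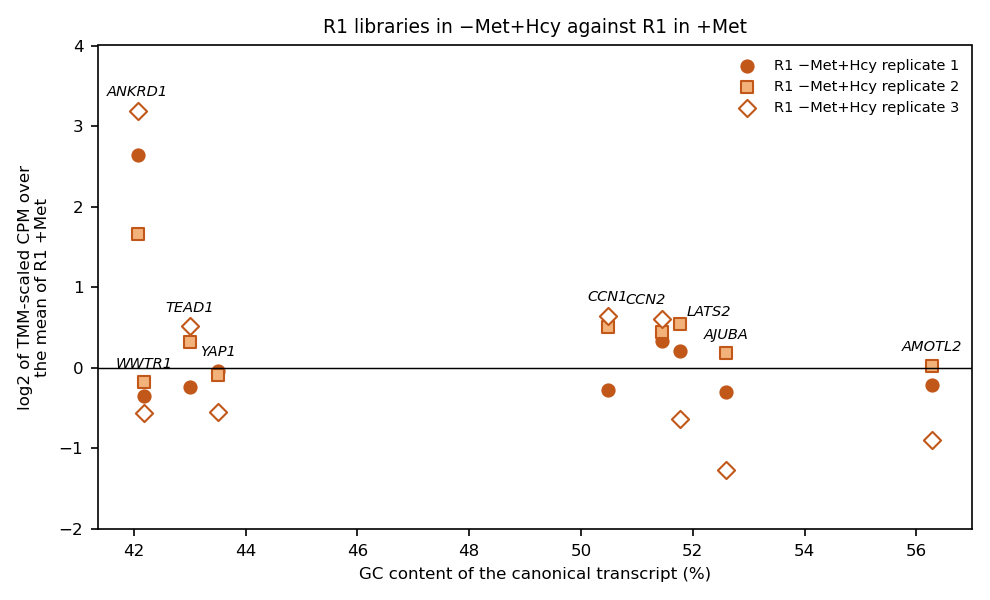
Log2 ratio of each R1 −Met+Hcy library to the mean of the R1 +Met libraries on TMM-scaled CPM (y axis) against the GC content of the gene's canonical transcript in percent (x axis), for the 9 genes. In replicate 3 (open diamonds) AJUBA lies at -1.27, AMOTL2 at -0.90 and LATS2 at -0.64, and CCN2, of like GC content but with a shorter transcript, at 0.61.

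The canonical transcripts of AMOTL2, AJUBA and LATS2 have a GC content of 56.3, 52.6 and 51.8%, and those of YAP1, TEAD1, WWTR1 and ANKRD1 lie between 42.1 and 43.5%. The plot of R1 libraries against GC content shows replicate 3 below the others for AMOTL2, AJUBA and LATS2 but not for CCN1 and CCN2, whose transcripts have 50.5 and 51.5%. YAP1 and WWTR1, with a low GC content, were also lowest in it. After removal of the smooth trend of each library on GC content and length, a step chosen after the data were seen, the log2 fold change in R1 was -0.02 for AMOTL2, -0.26 for AJUBA, 0.20 for LATS2 and 2.06 for ANKRD1.

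In −Met+Hcy medium, CCN2 was lower in R1 than in HEK293T cells, at 0.448 times the level, and it was the only one called of the 8 genes tested. Over all genes tested, 4.66% were called lower and 5.29% higher. Its R1 libraries, at 9.26, 10.1 and 9.38 CPM, all lay below the lowest HEK293T library, at 19.1 CPM. The log2 fold change was -1.17 ± 0.23 (edgeR adjusted p = 0.0061) and -1.24 without R1 replicate 3, where 6.44% of all genes were called lower. In a fit of the 6 libraries of this comparison alone the adjusted p was 0.0523, and after removal of the GC and length trend the log2 fold change was -0.96, so that the gene was no longer called. With the trend removed and without R1 replicate 3 it was -1.20 and called.

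ANKRD1 was also without overlap, at 3.77 ± 1.51 CPM in R1 against 9.60 ± 2.62 in HEK293T cells, with a log2 fold change of -1.32 that is given as a description. CCN1 lay at 27.7 ± 7.39 CPM against 44.3 ± 3.20, without overlap, and did not pass (log2 fold change -0.68 ± 0.27, edgeR adjusted p = 0.112). Libraries that are lower in R1 without overlap were found in 17.8% of all genes tested. For AJUBA, LATS2 and AMOTL2 the log2 fold changes were -0.53, -0.41 and -0.35 with overlap, and -0.22, -0.14 and -0.12 without replicate 3. TEAD1 had a log2 fold change of 0.62 (edgeR adjusted p = 0.245), WWTR1 0.31 and YAP1 -0.11.

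The difference between the responses of the lines to −Met+Hcy was tested as an interaction, taken as the log2 fold change in R1 minus that in HEK293T cells, and edgeR called none of the 8 genes. It called 0.0583% of all genes tested, 10 genes, with a negative difference, and 0 with a positive one. At an unadjusted p under 0.05 there were 793 genes with a positive and 866 with a negative difference. AJUBA had the largest absolute difference of the 8 at -1.73 ± 0.44 on the log2 scale (edgeR adjusted p = 0.263), followed by LATS2 at -1.29 ± 0.39 (adjusted p = 0.337) and AMOTL2 at -1.13 ± 0.37 (adjusted p = 0.359). With DESeq2 the adjusted p of AJUBA was 0.0191, a rule by which 0.717% of all genes were called with a negative difference. With edgeR without R1 −Met+Hcy replicate 3 it was 0.0283 at a difference of -1.42, where 1.08% were called. For LATS2 these values were 0.081 and 0.0565.

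For the other genes the estimated difference was -0.58 ± 0.33 for CCN2, -0.41 ± 0.26 for YAP1, -0.12 ± 0.38 for CCN1, 0.19 ± 0.48 for TEAD1 and -0.00 ± 0.26 for WWTR1, with adjusted p-values of 0.578 to 1.00. ANKRD1, described without a test, had log2 fold changes of 2.41 in HEK293T and 2.37 in R1 cells. These errors are wide, so that like responses are not shown for any of them.

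Across the 12 libraries, the genes most like ANKRD1 by Pearson's r of log2 CPM, among 11640 genes compared, were MDFIC (0.956), METTL16 (0.948), UBP1 (0.947), ZNF391 (0.946) and TOR1AIP2 (0.944). Among the 9, r with ANKRD1 was 0.88 for CCN2 and 0.76 for CCN1. For LATS2, AJUBA and AMOTL2 it was 0.38, 0.19 and 0.14, for TEAD1 0.01, for YAP1 -0.05, and for WWTR1 -0.83. The 12 libraries form 4 groups and share their scaling, so these values are a description of pattern.

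Levels of relatives are compared as CPM per kilobase of canonical transcript, in HEK293T +Met. Of the TEAD factors, TEAD4 was at 29.2 ± 3.18, TEAD2 at 11.3 ± 1.71, TEAD1 at 1.52 ± 0.614 and TEAD3 at 1.23 ± 0.151, so that TEAD1 was a minor transcript of its family. LATS1 was at 7.96 ± 2.57 and LATS2 at 0.883 ± 0.167, and YAP1 at 6.79 ± 1.23 and WWTR1 at 3.31 ± 0.172. AMOT was at 14.7 ± 2.49, AMOTL1 at 3.98 ± 0.970 and AMOTL2 at 1.99 ± 0.292, which makes AMOTL2 the lowest of the angiomotins. AJUBA, at 2.17 ± 0.465, was close to LIMD1 at 1.96 ± 0.338, and WTIP lay at 0.236 ± 0.0498. In HEK293T −Met+Hcy, AJUBA reached 6.88 ± 0.815 per kilobase while LIMD1 stood at 2.39 ± 0.587, and LATS2 reached 2.86 ± 0.406 with LATS1 at 12.1 ± 1.80.

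**Figure D4:**
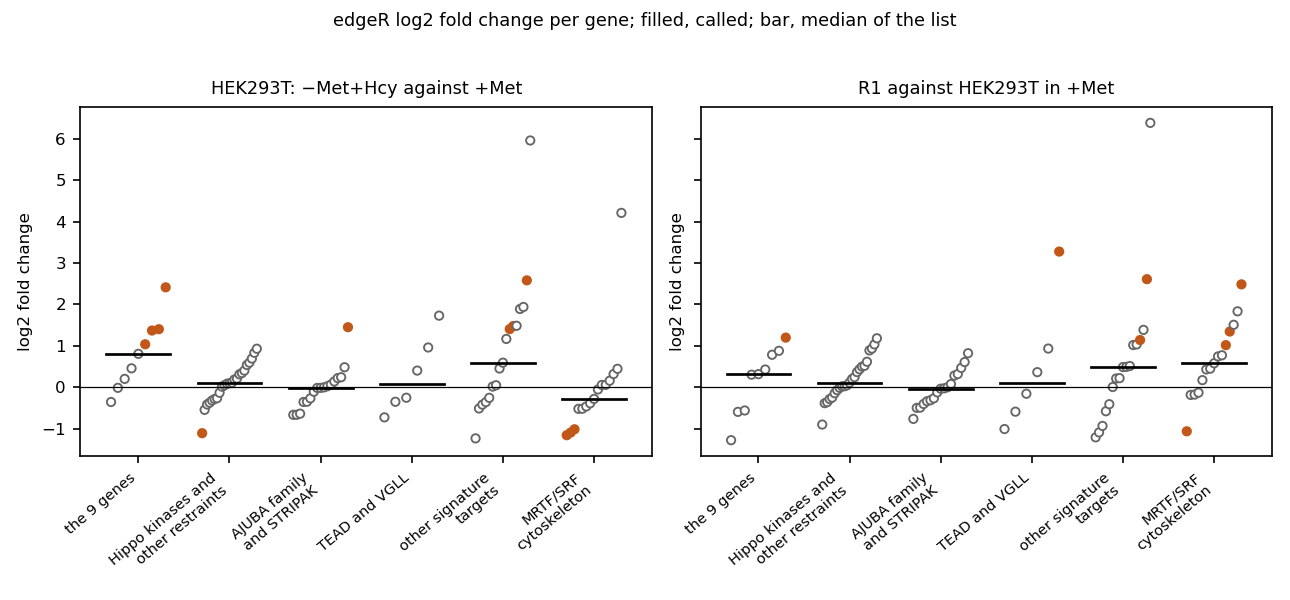
Log2 fold change per gene from edgeR (y axes) for the 9 genes and 5 lists of the pathway and of a neighbouring pathway (x axes), between media in HEK293T cells (left) and between the lines in +Met (right). Filled points are called genes and bars are list medians, which in HEK293T cells lie at 0.81 for the 9 genes, 0.60 for other signature targets and 0.10 for Hippo kinases and other restraints.

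The wider pathway was read from 5 lists, and PTPN14 and VGLL4 stand in more than one of them. Of 17 further target genes of a published YAP/TAZ signature, 3 rose in HEK293T cells in −Met+Hcy and none fell, with a median log2 fold change of 0.60, where 3.04% of all genes tested were called higher and 1.59% lower, with a median of 0.03. CCDC80, a secreted matrix-binding protein, went from 3.75, 3.15 and 3.00 CPM to 27.5, 25.9 and 19.9 (log2 fold change 2.58, edgeR adjusted p = 0.000874). GADD45A, a stress-induced growth arrest gene, went from 12.6, 11.2 and 9.92 CPM to 37.2, 37.9 and 34.8 (1.41, edgeR adjusted p = 0.00235). MYOF, a membrane repair protein, went from 0.939, 1.23 and 0.979 CPM to between 2.63 and 4.21 (1.48, edgeR adjusted p = 0.0498). None of the 3 overlapped between media on either scale, a pattern that 38.6% of all genes tested showed on column totals and 24.8% with TMM scaling.

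In R1 cells in +Met, 2 of the 17 were called higher than in HEK293T cells and none lower, beside 4.71 and 2.95% of all genes tested. ARHGEF17 rose to 29.3, 18.4 and 28.7 CPM from 2.63 to 3.63 in HEK293T cells (log2 fold change 2.61, edgeR adjusted p = 0.00374), and CCDC80 rose to 6.95 to 10.8 CPM (1.14, adjusted p = 0.0262). In −Met+Hcy, ARHGEF17 was again higher in R1 (2.01, adjusted p = 0.00975), although R1 replicate 3 stood at 5.11 CPM against 22.3 and 24.1. GADD45A was lower in R1 there (-1.27, adjusted p = 0.00139). Without R1 replicate 3, CCDC80 was called lower there as well, where 6.44% of all genes tested were called lower. With all libraries, GADD45A was also the only signature gene with a called difference of responses, at -1.76 ± 0.27 (edgeR adjusted p = 0.0459). That call was lost in 11 of the 12 fits that left out 1 library (adjusted p of 0.063 to 0.223), and with no filter on low counts (0.0659). Over all genes, those 11 fits called 0 to 3 with a negative difference and the fit with no filter 6, against 10 in the main fit. The call of GADD45A held without R1 −Met+Hcy replicate 3 (0.00394) and with DESeq2 (4.88e-08). GADD45A in R1 stood at 15.1, 18.8 and 12.4 CPM in −Met+Hcy and at 19.8, 22.2 and 18.4 in +Met.

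Of 23 kinases, adaptors and other restraints of YAP and TAZ, 1 was called in HEK293T cells between media, where 4.63% of all genes tested were called in either direction, so that the share in the list was near that of all genes. MOB1A, an activator of LATS kinases, fell in −Met+Hcy (from 58.6, 64.9 and 73.1 CPM to 32.5, 40.6 and 38.8, log2 fold change -1.10, edgeR adjusted p = 0.0114), and none rose beyond the threshold. The median of the list was 0.10. None of the 23 was called in the other comparisons by edgeR, with DESeq2 calling 1 in R1 against HEK293T cells in +Met, 2 in −Met+Hcy and 1 for the difference of responses. By the same rule DESeq2 called 6.42% of all genes tested higher and 4.16% lower in +Met, 6.68 and 6.09% in −Met+Hcy, and 0.39 and 0.717% with a positive and a negative difference, so that the list counts in both media were no higher than the share of all genes. Of 17 genes of the AJUBA family and of STRIPAK, the PP2A complex that removes phosphate from MST kinases, 1 was called, again near the share of all genes. CTTNBP2NL rose in HEK293T cells from 17.8, 18.1 and 14.6 CPM to 64.3, 54.1 and 51.2 (1.45, adjusted p = 0.0141), and the list median was -0.01. The PP2A subunits in the list were not called.

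Of 7 TEAD and VGLL factors, 6 were tested, and VGLL1 had no counts. None was called in HEK293T cells. VGLL3, a TEAD cofactor, was higher in R1 +Met at 3.94, 2.23 and 3.55 CPM against 0.0626, 0.205 and 0.490 (3.28 ± 0.61, edgeR adjusted p = 0.00613), from very few counts in HEK293T cells. With 6 genes tested, counts of 0 and 1 stand beside 4.63% of all genes called between media in HEK293T cells and 4.71% called higher in R1 +Met, and nothing is read from them.

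Genes of the MRTF/SRF pathway, which answers to actin and shares several targets with YAP, were read for comparison, and 15 of 16 were tested. In HEK293T cells in −Met+Hcy none rose and 3 fell, ACTG1 (-1.01), CNN2 (-1.09) and ZYX (-1.15), with a list median of -0.28, beside 3.04% of all genes tested called higher and 1.59% lower. The actin gene ACTG1 stood at 2839, 2859 and 2876 CPM in +Met and at 1719, 1804 and 1699 in −Met+Hcy (edgeR adjusted p = 0.0238). In R1 +Met, TPM2 (2.49), TPM1 (1.35) and VCL (1.02) were higher than in HEK293T cells and FHL2 (-1.06) was lower, where 4.71% of all genes tested were called higher and 2.95% lower. The tropomyosin gene TPM2 stood at 50.3, 43.1 and 48.2 CPM in R1 +Met and at 4.59 to 8.26 in HEK293T +Met (edgeR adjusted p = 0.000461). In −Met+Hcy, ACTA2 (2.26), TPM2 (2.16) and TPM1 (1.97) were higher in R1 and FHL2 (-1.24) was lower, the last no longer called without R1 replicate 3. With all libraries, 5.29% of all genes tested were called higher and 4.66% lower there. Of the 8 HEK293 line markers, EYA1 rose and VIM fell in HEK293T −Met+Hcy (1.05 and -1.35). In R1 +Met, 3 were higher and NEFM was lower than in HEK293T cells. The shares of all genes given for the MRTF/SRF genes apply to these markers too.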

How the data were processed

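RNA sequencing was analysed for 12 libraries. The authors quantified the reads with kallisto 0.48.0 against GRCh38 and deposited estimated counts as whole numbers per Ensembl gene, not scaled for library size; whole values were used as deposited. Of 23500 genes, 868 have no symbol, and genes with a summed count under 10 were excluded (17162 tested). Counts were tested in R 4.3.3 with edgeR 4.0.16 (TMM, quasi-likelihood, 4 group means, 8 residual degrees of freedom, Benjamini-Hochberg). Alternatives were DESeq2 1.42.0, RLE scaling, no filter, filterByExpr, a replicate block, the libraries of one comparison, robust estimation, the adjusted p alone, each library left out, and, chosen after the data were seen, removal of each library's loess trend (span 0.3) with GC content and length. The 9 genes and the lists were chosen with earlier results of these data known. Genes named are the 9, their relatives, the 5 most like ANKRD1, and up to 3 called genes in each direction per list and comparison with at least 1 CPM. Coordinates are from GENCODE and promoters from RefSeq. On simulated data for media in HEK293T cells (17162 genes, 200 changed), edgeR recovered 191 (95.5%) with 5 false calls. The simulated spread was taken without R1 −Met+Hcy replicate 3 and held no GC trend, and only well-counted genes were changed. It therefore does not give the power of the reported fit, nor that for genes with few counts such as ANKRD1. The labels of the R1 libraries give HEK293T as cell line, and their titles were followed. One CPM is 12.7 to 18.8 counts, which limits ANKRD1.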

Additional observations from a re-analysis of the deposited data

Results flagged for a closer look

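GADD45A was flagged because the effect of −Met+Hcy differed between the lines by a test of the difference itself: the log2 fold change in R1 minus that in HEK293T cells was -1.76 ± 0.27 (edgeR adjusted p = 0.0459). The call depended on the fit. It was lost in 11 of 12 fits that left out 1 library, at adjusted p-values of 0.063 to 0.223, with no filter (0.0659) and with the replicate number as a block (0.172). Over all genes, those 11 fits called 0 to 3 with a negative difference, against 10 in the main fit. The fit with no filter called 6 and the block 0, so that calls were lost over all genes too. The call of GADD45A held with the other alternatives run, among them the fit without R1 −Met+Hcy replicate 3 (0.00394) and DESeq2 (4.88e-08). The difference lay between -1.88 and -1.66 over all alternatives. All 3 HEK293T −Met+Hcy libraries were above the +Met libraries (34.8 to 37.9 against 9.92 to 12.6 CPM), and in R1 cells the −Met+Hcy libraries reached 12.4 to 18.8 CPM against 18.4 to 22.2 in +Met. None of the 9 genes was flagged, and single values were not tested for outliers in groups of 3 libraries.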

How the results depend on the processing

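Of the 9 genes, edgeR called 4 in HEK293T cells between media. Of the 8 without ANKRD1, it called 1 in R1 against HEK293T cells in +Met, 1 in −Met+Hcy and 0 for the difference of responses. Leaving out 1 library gave 0 to 4, 0 to 1, 1 to 1 and 0 to 1. Over all genes, those fits called 204 to 1155 higher in HEK293T cells between media and 415 to 1531 higher in R1 in +Met. They called 455 to 1100 lower in R1 in −Met+Hcy and 0 to 184 with a negative difference. DESeq2 called 1 for the difference (AJUBA), as did removal of the GC and length trend, with or without R1 −Met+Hcy replicate 3. Over all genes, the main fit called 10 of 17162 with a negative difference and DESeq2 123. Removal of the trend gave 126 of 15857, and 347 of 15798 without that library. In −Met+Hcy, the 6 libraries of the comparison alone gave 0 of the 8. There, removal of the trend gave 0, or 1 (CCN2) without R1 −Met+Hcy replicate 3 as well. Over all genes, these 3 fits called 219 of 16523, 914 of 15857 and 957 of 15798 lower, against 800 of 17162 in the main fit. With the replicate number as a block, 2 were called in HEK293T cells (AJUBA, LATS2). Of 17162 genes, that fit called 345 higher and 172 lower there, against 521 and 273 without the block. Deviations of same-numbered libraries from their group means had r of -0.72 to 0.60 (median 0.01) over 18 pairs, and 6 exceeded 0.1. The median over the 36 other pairs was 0.03. Trends of whole libraries, such as that with GC content, enter these deviations. They therefore cannot decide whether equal numbers mark libraries handled together.

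For the lists, DESeq2 called 1 of the Hippo genes in R1 against HEK293T cells in +Met, 2 in −Met+Hcy and 1 for the difference, where edgeR called 0, and 5 of the 17 signature genes in +Met (edgeR 2) and 2 for the difference (edgeR 1). Over all genes tested, DESeq2 called 1101 higher and 714 lower in +Met (edgeR 808 and 507), and 67 and 123 with a positive and a negative difference (edgeR 0 and 10). Without R1 −Met+Hcy replicate 3, edgeR called 1 Hippo gene in +Met, 1 in −Met+Hcy, 1 STRIPAK gene for the difference (0 with all libraries), 1 TEAD or VGLL gene in HEK293T cells (0), and 8 signature genes in HEK293T cells, 7 higher and 1 lower (FJX1, named after its values were seen; 3 higher with all libraries), 6 in +Met, 5 higher and 1 lower (again FJX1; 2 higher with all), and 2 for the difference (1). Without that library the share of all genes called higher also went from 3.04 to 6.77% in HEK293T cells and from 4.71 to 8.97% in +Met, and the share called lower from 1.59 to 3.56% and from 2.95 to 5.28%. Between the lines in −Met+Hcy these shares went from 5.29 to 8.63% and from 4.66 to 6.44%. For the difference they went from 0 to 0.305% and from 0.0583 to 1.08%. No called value changed direction under an alternative. The causes were not tested. Low counts limit ANKRD1 and VGLL3, and 3 libraries per group limit every call.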
